A study of Homo sapiens with 32 samples.

Results

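Broad peaks, defined as peaks that spanned at least 2000 bp of the genome on chromosomes 1 to 22 and X, made up 4326 of the 338017 peaks in 12 lists of N6-methyladenosine (m6A) enrichment. They were chosen by width alone, read from the deposited start and end of each peak, and the 249239 peaks under 500 bp of the same lists, called narrow peaks here, served for comparison. The lists come from MeRIP-seq, in which fragmented RNA is pulled down with an m6A antibody and sequenced, of chromatin-associated RNA from 4 lines of human tumour cells. Of these, OVCAR8 and SKOV3 are of ovarian origin, while LOVO and RKO are labelled as colon adenocarcinoma cells. In each line a group labelled WT, titled as control, was set against a group with METTL3 knockdown, titled shMETTL3. The labels give neither the hairpin, whether the cells are 1 clone, nor the level of METTL3 left. The protocol in the labels is otherwise the same for all groups: m6A and unmodified spike-in RNA was added, RNA was enriched with the same kit, and stranded paired-end libraries were made. Each group of OVCAR8 or SKOV3 had 2 lists, 1 per MeRIP library, and each group of LOVO or RKO a single list and so no replicate. Whether replicate libraries stem from separate cultures is not stated in the labels, and p-values then cover only the spread of these lists, which may be technical.

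m6A is placed on nascent RNA by a complex whose catalytic subunit is METTL3, with METTL14, WTAP and the RNA-binding adaptors RBM15 and RBM15B. The mark is known to gather in long internal exons, near stop codons and in long intronic transcripts, where many methylated adenosines can lie close together. A peak caller joins neighbouring enriched positions into 1 peak, and the width it reports is a distance along the genome. MeRIP peaks depend on both methylation and RNA level, and in bulk samples fewer cells of a type and less RNA per cell cannot be told apart. The input libraries, which carry the RNA level, were not analysed here.

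A few annotated elements that broad peaks contained, in whole or in part, are shown at the level of sequence. The promoter windows shown, 250 bases before to 30 bases after the annotated start on the gene strand, belong to the genes whose start base lay in a broad peak in most lists, CDK13 in 11 lists (chr7:39950006-39950285, plus strand) and the long non-coding RNA gene LOC100129215 in 7 lists (chr16:87696112-87696391, minus strand). The broad peaks covered the whole CDK13 window. Those over LOC100129215 began 70 to 74 bases before the start and so covered only part of its window. Capitals mark each GGAC, the commonest form of the motif that METTL3 methylates.
CDK13: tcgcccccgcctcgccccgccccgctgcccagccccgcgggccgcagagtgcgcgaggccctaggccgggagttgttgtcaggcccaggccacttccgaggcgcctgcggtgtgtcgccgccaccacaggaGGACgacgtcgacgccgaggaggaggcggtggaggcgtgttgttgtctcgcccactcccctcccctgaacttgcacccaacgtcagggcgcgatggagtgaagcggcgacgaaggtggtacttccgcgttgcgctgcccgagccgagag
LOC100129215: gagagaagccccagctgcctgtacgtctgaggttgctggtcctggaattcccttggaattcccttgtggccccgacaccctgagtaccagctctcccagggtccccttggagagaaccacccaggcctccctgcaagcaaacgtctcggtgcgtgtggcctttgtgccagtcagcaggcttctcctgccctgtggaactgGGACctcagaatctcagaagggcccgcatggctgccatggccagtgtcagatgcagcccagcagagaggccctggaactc
The hairpins of the microRNA genes MIR4292 (chr9:136830957-136831023, plus strand, inside RABL6) and MIR6501 (chr21:33550662-33550728, plus strand, inside SON) lay whole in a broad peak in 12 and in 5 lists. Capitals mark the mature microRNAs in the hairpins, and the seed, bases 2 to 8, in the mature sequences.
MIR4292: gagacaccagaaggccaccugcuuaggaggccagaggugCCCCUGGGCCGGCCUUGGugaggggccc
hsa-miR-4292: cCCCUGGGccggccuugg
MIR6501: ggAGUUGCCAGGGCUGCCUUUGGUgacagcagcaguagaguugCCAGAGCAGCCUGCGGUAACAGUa
hsa-miR-6501-5p: aGUUGCCAgggcugccuuuggu
hsa-miR-6501-3p: cCAGAGCAgccugcgguaacagu
Sequences and positions are those of RefSeq on GRCh38.p14, and the lists are on hg38. In the CDK13 window GGAC occurs 1 time on the gene strand and 0 times on the opposite strand, and in the LOC100129215 window 1 and 2 times. GGAC was found on the gene strand of 63.3% and on the opposite strand of 63.4% of the 34961 promoter windows of this length, so its presence sets neither window apart. The seeds of the 3 mature microRNAs are all different. These were the exceptions among such elements: of 27197 gene starts with a known strand, 88 lay in a broad peak of at least 1 list, and of 1558 microRNA hairpins, 4 did.

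The labels of the ovarian lists have to be read with care, and broad peaks show why. Of the broad peaks in the lists labelled OVCAR8 knockdown, all were touched by a peak of the lists labelled SKOV3 control, and 99.3% had their midpoint in one. Against the lists labelled OVCAR8 control, the line they are labelled with, the midpoint share was 82.5%. Of the broad peaks labelled OVCAR8 control, 89.8% had their midpoint in a peak labelled SKOV3 knockdown and 56.1% in one labelled OVCAR8 knockdown. The lists labelled SKOV3 control gave 70.8% against the lists labelled OVCAR8 knockdown and 60.2% against their own. For the lists labelled SKOV3 knockdown it was 95.9% against OVCAR8 control and 80.3% against SKOV3 control. For peaks of all widths, the crossed and own midpoint shares were 95.2% and 66.8% for OVCAR8 knockdown and 72.0% and 31.8% for OVCAR8 control. They were 78.3% and 53.3% for SKOV3 knockdown, but 39.3% and 45.8% for SKOV3 control, where the order turned. So by midpoint each ovarian list of broad peaks was nearer to the other condition of the other line. By width, and by midpoint over all widths, the lists labelled SKOV3 control were not. The groups below are named as labelled, not as checked. METTL3 itself carried no broad peak in any list and between 0 and 3 peaks per list, which says nothing of its level, so the knockdown was not checked here.

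The lines were also compared with 8 markers each of the labelled tissues, counted as genes with a peak of any width. Of the intestinal markers, 4 had a peak in each LOVO list, 1 in the RKO control list, 0 in the RKO knockdown list and 0 in all 8 ovarian lists. Of the ovarian or Muellerian markers, 3 (PAX8, MECOM and MUC16) had peaks in the lists labelled OVCAR8 control and in those labelled SKOV3 knockdown, with 25 and 17 peaks per list. The lists labelled SKOV3 control had 1 of these markers, those labelled OVCAR8 knockdown 0, and the LOVO and RKO lists 1 or 2. The RKO knockdown list stood apart in other measures: 84.0% of its narrow peaks lay on the strand of their gene, against 93.2% to 94.6% in the other 11 lists, and its median score was 26.7 for broad peaks against 7.90 in the RKO control list. Main results are therefore given also without RKO or with the ovarian knockdown lists exchanged, where the value of a line or a call changes.

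Fewer broad peaks, as deposited, were listed for METTL3 knockdown than for control in every line. The lists labelled OVCAR8 control held 400 and 393 broad peaks, and those labelled OVCAR8 knockdown 142 and 155. The lists labelled SKOV3 control held 516 and 553, and those labelled SKOV3 knockdown 342 and 371. LOVO held 306 in the control and 278 in the knockdown list, and RKO 497 and 373. In both ovarian lines the groups did not overlap, and the number was lower in the knockdown group by 62.5% (OVCAR8), 33.3% (SKOV3), 9.15% (LOVO) and 24.9% (RKO). The mean difference over the 4 lines was −0.64 on the log2 scale, a ratio of 0.642 (two-sided exact permutation test within lines, 144 arrangements, p = 0.0139, the smallest p this design can give). Without RKO it was −0.71 (exact permutation test, p = 0.0278, the smallest possible there). With the ovarian knockdown lists exchanged, the number was 10.1% lower in the lists labelled SKOV3 knockdown than in those labelled OVCAR8 control, and 72.2% lower in those labelled OVCAR8 knockdown than in those labelled SKOV3 control, still without overlap. The mean over lines is the same by construction, so the size of the difference in either ovarian line rests on the labels. The lists as a whole were shorter too: peaks of all widths were fewer by 45.2%, 8.58%, 14.3% and 9.05% in the same order.

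Relative to the length of each list, the change was smaller and not shared by all lines. Broad peaks were 1.39% ± 0.0359 of peaks (SD, n = 2) in the lists labelled OVCAR8 control and 0.951% ± 0.0477 (SD, n = 2) in those labelled OVCAR8 knockdown. In SKOV3 they were 1.84% ± 0.0819 (SD, n = 2) in lists labelled control and 1.34% ± 0.0527 (SD, n = 2) in lists labelled knockdown. In RKO the share was 1.33% in the control and 1.10% in the knockdown list. LOVO went the other way, from 0.844% to 0.895%. The mean difference was −0.28 percentage points (exact permutation test within lines, p = 0.0278). Counted in bases, broad peaks held 9.14% ± 0.279 and 6.44% ± 0.166 (SD, n = 2 each) of the covered genome in the OVCAR8 control and knockdown lists, and 11.2% ± 0.342 and 8.67% ± 0.242 (SD, n = 2 each) in those of SKOV3. In RKO they held 8.07% and 6.81%, and in LOVO 5.42% and 5.74%, a mean difference of −1.54 percentage points (exact permutation test, p = 0.0278). Both calls were lost without RKO, where the share of peaks differed by −0.30 points and that of bases by −1.63 (exact permutation tests, p = 0.0556 for each, where 0.0278 was the smallest possible). In the LOVO and RKO lists, between 673 and 2150 peaks share a name with another piece of the same called peak, and joining such pieces raised the broad peaks of LOVO to 339 in the control and 371 in the knockdown list, so the direction in LOVO turned. In RKO the joined numbers were 564 and 473. With pieces joined, both calls were lost as well, at −0.19 points of peaks (exact permutation test, p = 0.153) and −1.01 points of bases (exact permutation test, p = 0.167), while the number differed by −0.53 on the log2 scale (exact permutation test, p = 0.0278). With the ovarian knockdown lists exchanged, broad peaks were 1.39% of peaks labelled OVCAR8 control and 1.34% of those labelled SKOV3 knockdown, where the single lists overlapped, and 1.84% of peaks labelled SKOV3 control against 0.951% of those labelled OVCAR8 knockdown. The shares of bases were then 9.14% against 8.67% and 11.2% against 6.44%, without overlap. Joining pieces and exchanging lists for these values were chosen after seeing the data.

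**Figure D1:**
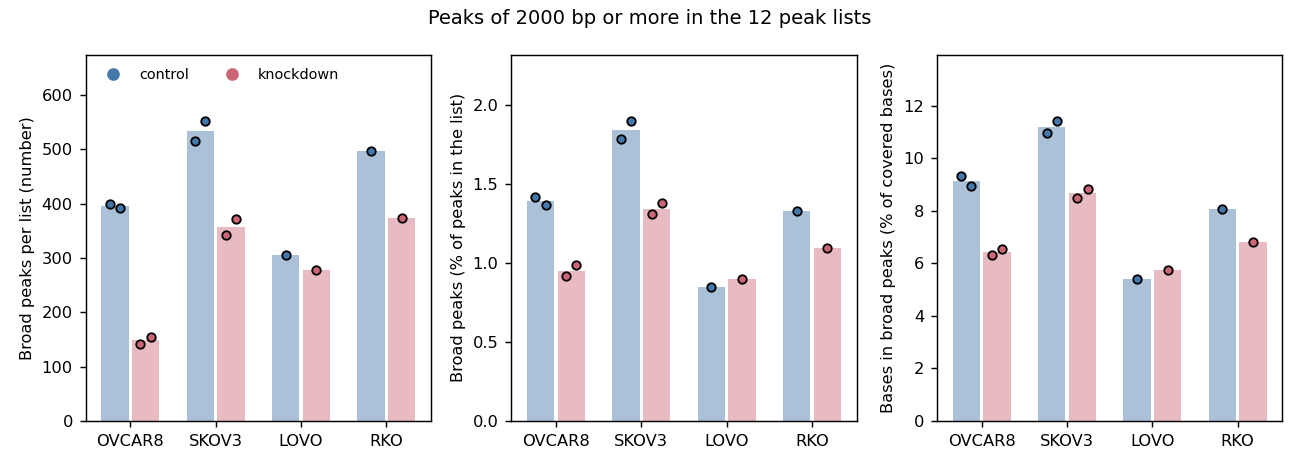
Number of broad peaks (left), their percent of all peaks (middle) and the percent of covered bases they hold (right) in each cell line. Bars are group means and points single lists, 2 per group in OVCAR8 and SKOV3 as labelled and 1 in LOVO and RKO. The number is lower in the knockdown list of every line, and both shares are lower in all lines but LOVO.

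Broad peaks were mostly not much over the threshold, with a tail of very wide ones. Their median width ranged from 2338 bp in the LOVO knockdown list to 2611 bp in a list labelled OVCAR8 control, and that of all peaks from 288 to 323 bp. The narrowest broad peak of a list was 2000 to 2005 bp wide, and the widest peak left out 1978 to 1999 bp. Between 24 and 132 peaks per list lay within 200 bp above the threshold and 59 to 204 within 200 bp below it. Peaks of 5000 bp or more numbered 19 and 14 in the lists labelled OVCAR8 control and 7 and 6 in those labelled knockdown. The corresponding numbers were 33 and 33 against 14 and 13 for SKOV3, 5 against 5 for LOVO, and 14 against 6 for RKO.

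Broad peaks were also high peaks. The authors' fold enrichment had a median of 14.0 and 13.8 for broad and 4.53 and 4.47 for narrow peaks in the lists labelled OVCAR8 control. In the lists labelled OVCAR8 knockdown it was 9.71 and 9.59 for broad and 4.45 and 4.33 for narrow peaks. In SKOV3 it was 13.8 and 13.1 for broad peaks of lists labelled control and 10.1 and 9.68 for those of lists labelled knockdown, with narrow peaks between 3.97 and 4.43. The score of LOVO, which no header explains, had a median of 9.55 in the control and 8.61 in the knockdown list for broad peaks, and 5.33 and 5.14 for narrow peaks. In RKO the broad median went from 7.90 to 26.7, and the narrow median from 4.77 to 7.19. Height and width come from the same peak calls, so these values describe broad peaks and were not tested.

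Most control broad peaks met a knockdown peak somewhere along their length. A knockdown peak of the same strand touched 78.2% of broad and 26.8% of narrow peaks of the lists labelled OVCAR8 control (mean of 4 pairs of lists), and 79.0% of broad and 41.9% of narrow peaks of those labelled SKOV3 control. In LOVO the shares were 99.02% of 306 broad peaks (95% exact binomial interval 97.2% to 99.8%) and 53.2% of narrow peaks. In RKO they were 89.1% of 497 (86.1% to 91.7%) and 29.8%. For peaks of all widths the share touched was 36.1% (OVCAR8), 50% (SKOV3), 62.2% (LOVO) and 39.9% (RKO). The mean difference between broad and narrow peaks was 48.4 percentage points, with broad peaks higher in 4 of 4 lines (exact sign-flip permutation test over lines, p = 0.125, the smallest p that 4 lines allow). Intervals cover counting error only.

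A wide peak offers more positions to touch, so the midpoint, a single base whatever the width, was compared as well. The midpoint lay in a knockdown peak for 56.1% of broad and 25.5% of narrow peaks labelled OVCAR8 control, and for 60.2% and 40.5% of those labelled SKOV3 control. In LOVO it did so for 86.9% of broad peaks (95% exact binomial interval 82.6% to 90.5%) and 50.3% of narrow peaks, and in RKO for 65.0% (60.6% to 69.2%) and 27.3%. For peaks of all widths the shares were 31.8%, 45.8%, 57.0% and 34.6% in the same order of lines. Broad peaks stood 31.1 percentage points above narrow peaks on average, again in 4 of 4 lines (exact sign-flip permutation test over lines, p = 0.125, the smallest possible). Between replicate lists of the same label, the midpoints of 96.8% to 99.4% of broad and 77.6% to 86.6% of narrow peaks were found again, so in the ovarian lines as labelled the loss against knockdown lists was larger than that between replicates for both. LOVO and RKO have no replicate lists to set beside theirs. The gap by touch and by midpoint was 44.8 and 29.0 points without RKO, and 49.9 and 34.6 points with the knockdown lists of the ovarian lines exchanged.

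The gap between broad and narrow peaks shrank when the narrow peaks were closer in kind. Against peaks of 500 bp up to 1000 bp it was 9.72 points at the midpoint (exact sign-flip permutation test, p = 0.125). Between 73.3% and 82.1% of ovarian control broad peaks, but 39.2% and 38.0% of those in LOVO and RKO, were in the top 10% of their list by peak strength, the −log10 p in the ovarian lists and the score in the others. When narrow peaks were weighted to the strength of the broad ones, the gap was 5.81 points on average (exact sign-flip permutation test, p = 0.5). It was then −7.79 points in OVCAR8 and −2.52 in SKOV3, where broad peaks were found again less often than narrow peaks of like strength, and 11.1 points in LOVO and 22.5 in RKO, where they were found more often. With the ovarian knockdown lists exchanged, this gap was −3.29 points for OVCAR8 control and −9.83 for SKOV3 control, so the order of these lines turned. By touch rather than midpoint the like-strength gap was 22.6 points and positive in all 4 lines.

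**Figure D2:**
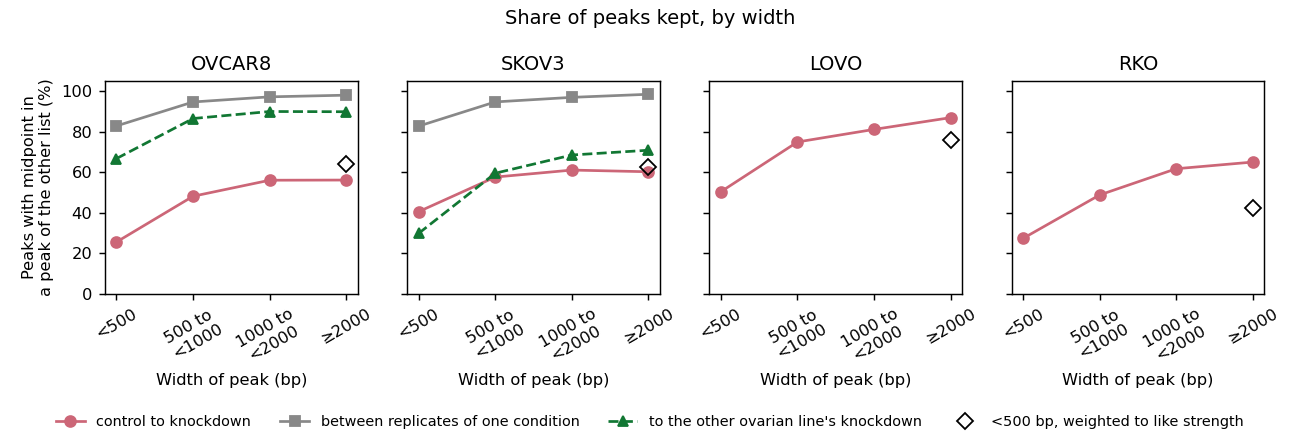
Percent of peaks (vertical axis) whose midpoint lies in a peak of another list, by width of the peak in bp (horizontal axis), for each line. Circles compare control with knockdown lists, squares replicate lists of one condition, triangles a control with the knockdown of the other ovarian line, and the open diamond stands for peaks under 500 bp weighted to the strength of broad ones. Kept shares are lowest under 500 bp in every line, and the diamond lies above the broad peaks in OVCAR8 and SKOV3 and below them in LOVO and RKO.

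The width of the overlapping peak was compared next, in both directions, since the peaks were chosen for their width in 1 of the lists. The widest overlapping peak was itself broad for 23.9% of broad peaks labelled OVCAR8 control, 37.0% of those labelled SKOV3 control, 56.9% in LOVO and 30.8% in RKO. Between replicate lists of the ovarian lines this share was 81.3% to 90.9%. From knockdown to control, the share still broad was 65.0% (OVCAR8), 55.1% (SKOV3), 62.6% (LOVO) and 40.8% (RKO), so broad peaks of either condition were often narrower, as listed, in the other. From control to knockdown, the widest overlapping peak was 1000 bp up to 2000 bp wide for 24.7%, 18.4%, 24.2% and 32.0% in the order of lines above, and under 1000 bp for 29.7%, 23.6%, 18.0% and 26.4%. All LOVO and RKO shares here are of pieces as listed, which are narrower than the joined peak. Peaks sharing a name numbered 673 in LOVO control, 2052 in LOVO knockdown, 1281 in RKO control and 2150 in RKO knockdown. The width shares were not taken with pieces joined. Several separate knockdown peaks lay under 1 control broad peak for 44.7% (OVCAR8) and 37.1% (SKOV3) of broad peaks, against 12.3% to 22.6% between replicates, and the LOVO and RKO lists, which hold pieces of 1 called peak, were not counted. In the crossed comparison, 68.1% of broad peaks labelled OVCAR8 control were still broad in the lists labelled SKOV3 knockdown. With SKOV3 control set against OVCAR8 knockdown, 26.2% were still broad although 98.5% were touched. From knockdown to control, the crossed shares were 96.9% for OVCAR8 knockdown in SKOV3 control and 75.7% for SKOV3 knockdown in OVCAR8 control.

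**Figure D3:**
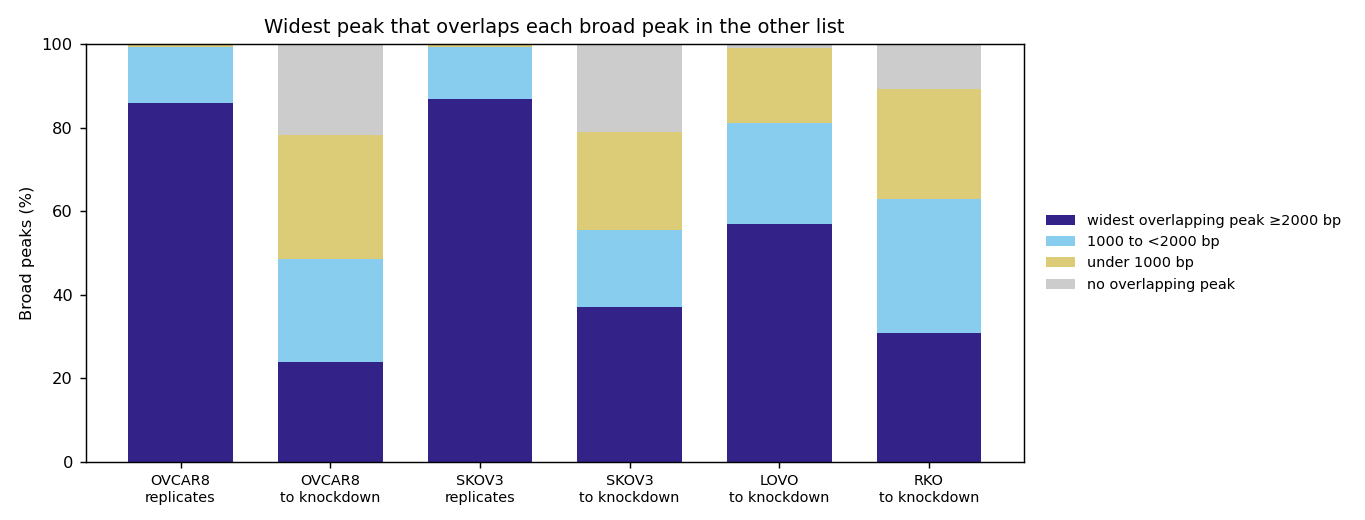
For each broad peak, the widest peak that overlaps it in the other list, as percent of broad peaks (vertical axis), for pairs of replicates and for control against knockdown. Replicate columns average pairs of control lists and pairs of knockdown lists. Still-broad shares are 85.9% and 86.9% between replicates and 23.9% to 56.9% against knockdown lists.

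As labelled, broad peaks that had no counterpart at all differed between lines in number and in genes. Of the broad peaks labelled OVCAR8 control, 82 in each list (20.5% and 20.9%) were touched by no peak of either knockdown list, where 61.1% of control peaks of all widths were untouched. In SKOV3 these were 106 and 109 (20.5% and 19.7%, all widths 46.9%), in LOVO 3 (0.980%, all widths 37.8%) and in RKO 54 (10.9%, all widths 60.1%). As a mean over pairs of lists, the untouched share was 21.8% for OVCAR8 control and 21.0% for SKOV3 control as labelled. With the ovarian knockdown lists exchanged, it was 3.53% and 1.49%. The exchanged lists touched 75.7% and 46.2% of the control peaks of all widths. In the other direction, knockdown broad peaks that no control peak touched numbered 12 and 14 in the lists labelled OVCAR8 (8.45% and 9.03%, all widths 28.4%) and 27 and 34 in SKOV3 (7.89% and 9.16%, all widths 40.7%). LOVO had 9 (3.24%, all widths 26.9%) and RKO 104 (27.9%, all widths 54.9%). In every line and direction as labelled, the share was below that of all widths. A wide peak offers more positions to touch, so these shares are not alike in kind, and the midpoint shares stand above.

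The genes behind these peaks in the ovarian lists followed the crossed labels. PDE10A, a phosphodiesterase gene on chromosome 6, had 6 and 5 broad peaks in the lists labelled OVCAR8 control, 0 in those labelled OVCAR8 knockdown, 0 in those labelled SKOV3 control and 2 and 3 in those labelled SKOV3 knockdown. MIR3667HG, a long non-coding microRNA host gene on chromosome 22, had 6 and 5, then 0, 0, and 2 and 1 in the same order. Both genes had no peak of any width in either set of lists at 0. ASS1, the argininosuccinate synthase gene on chromosome 9, had 4 and 4 broad peaks in the lists labelled OVCAR8 control and 0 in all others, with 12 and 14 narrower peaks in those labelled SKOV3 knockdown.

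The reverse pattern was held by PTPRN2, a receptor-type phosphatase gene of secretory vesicles on chromosome 7, with 2 and 2 broad peaks in lists labelled OVCAR8 knockdown and 4 and 2 in those labelled SKOV3 control. It had no peak in the lists labelled OVCAR8 control or SKOV3 knockdown. RGS12, a regulator of G-protein signalling, gave the same numbers, 2 and 2 against 4 and 2, and 0 elsewhere. The widest RGS12 peak of each of these 4 lists lay on the strand opposite to the gene. FLRT2, a membrane protein gene of cell adhesion, had 1 in each of these 4 lists. The untouched control peaks of SKOV3 lay most often in WDPCP, a ciliogenesis gene with 5 broad peaks in each list labelled SKOV3 control, and KCNQ5, a potassium channel gene with 3 in each. The broad WDPCP peaks, up to 6356 and 10678 bp wide, lay on the strand opposite to the gene. Peaks on the strand of WDPCP were at most 296 and 222 bp wide in these lists. WDPCP had no broad peak elsewhere but 39 and 38 narrower peaks in the lists labelled OVCAR8 knockdown. EPPK1, the epiplakin gene, had 3 and 2 broad peaks in lists labelled SKOV3 knockdown, 2 and 2 in those labelled OVCAR8 control, and 0 in both remaining groups.

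Gene by gene, fewer broad peaks in every knockdown than in every control list were found for 46.0% of the 335 genes with a broad peak in OVCAR8. The same share was 33.3% of 543 (SKOV3), 33.8% of 305 (LOVO) and 49.1% of 521 (RKO). More in every knockdown list were found for 6.87%, 15.7%, 22.3% and 28.0%. With 1 or 2 lists a group these counts are descriptions without a test. In the ovarian lines 2 lists had to differ from 2, in LOVO and RKO 1 from 1, so the shares are not alike between lines. Knockdown lists were also shorter as a whole, as given above.

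In LOVO and RKO, the genes were others. The untouched LOVO control peaks included 1 in KDM5A, a histone demethylase gene, and 1 in RILPL1, which encodes a Rab effector. The knockdown list of LOVO had an untouched broad peak in AKAP13, a kinase anchoring protein gene, in CEACAM5, which encodes the carcinoembryonic antigen, and in AHNAK, which encodes a giant scaffold protein. The CEACAM5 peak was 2207 bp wide where the control list had 5 peaks of at most 752 bp elsewhere in the gene. Its score was 3.39, and CEACAM5 had 0 broad peaks when a score of at least 5 was required. The 9 untouched broad peaks of the LOVO knockdown list were weak, with a median score of 3.87 against 8.61 for all its broad peaks. For the 3 untouched broad peaks of the LOVO control list the median was 6.66, against 9.55 for all. In the RKO control list, AHNAK, AHNAK2 and DSP, the desmoplakin gene, had 3, 2 and 2 broad peaks, 2 of each untouched, and none in the knockdown list. The RKO knockdown list had 3 untouched broad peaks in FAT3, an atypical cadherin gene with 49 peaks there and 0 in the other 11 lists, 3 in NRG1, which encodes an ErbB ligand, and 2 in APC2. These untouched RKO knockdown peaks had a median score of 33.3, against 26.7 for all broad peaks of the list.

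Broad peaks were few per gene and spread over many genes. Of 14253 genes with a peak assigned to them alone, 924 (6.48%) had a broad peak in at least 1 list, 321 of these in 1 list only and 48 in 11 or more. The genes with a broad peak per list numbered 101 and 111 in the lists labelled OVCAR8 knockdown and 203 to 388 in the others. A median of 47.0 peaks over all lists fell in genes with a broad peak and of 9 in genes with none, and the median gene length was 56134 and 30833 bp. Between 14.1% and 22.5% of the broad peaks of a list overlapped several genes, and 6 to 32 peaks overlapped none.

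In 12 genes a broad peak was found in every list. The 8 named by the rule set for this work were ANKLE2, C15orf39, JUN, KMT2A, METTL15, PALM2AKAP2, PRRC2B and RBM15. TNKS1BP1, URB2, ZNF445 and ZNF646 tied with them. When same-strand broad peaks were merged into 1395 regions, 519 were broad in 1 list only, 40 in 11 lists and 15 in all 12, the latter being the 12 genes above and regions in ARHGEF17, NUMA1 and RABL6, whose peaks also overlap a second gene. Of the 40 regions missing from a single list, 22 were missing from the RKO knockdown list and 0 from the control lists of both ovarian lines. TNKS1BP1, URB2, ARHGEF17, NUMA1 and RABL6 were chosen after their values were seen.

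RBM15, an adaptor of the methyltransferase complex itself, had its broad peak at the start of the gene (chr1:110339267-110342433, plus strand, from 110 bases before the annotated start). Its width was 2902 and 2902 bp in the lists labelled OVCAR8 control, 2860 and 2873 in those labelled OVCAR8 knockdown, 3076 and 3076 in those labelled SKOV3 control and 2993 and 3040 in those labelled SKOV3 knockdown. It was 2804 and 2781 bp in LOVO control and knockdown and 2964 and 2899 in RKO. Knockdown widths were slightly lower in each line as labelled, but the widths labelled SKOV3 knockdown were above those labelled OVCAR8 control, so with the ovarian labels exchanged the direction turned in 1 of the pairs. RBM15B, its paralogue, had a broad peak in 6 lists, with widths of 2027 to 2553 bp there.

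JUN, an immediate-early gene of the AP-1 transcription factor with a single exon, was covered over most of its length (chr1:58781631-58784124, minus strand). The peak was 2316 and 2310 bp wide in lists labelled OVCAR8 control and 2461 and 2451 in OVCAR8 knockdown. It was 2489 and 2485 in those labelled SKOV3 control and 2318 and 2316 in those labelled SKOV3 knockdown, 2214 and 2209 in LOVO control and knockdown, and 2278 and 2364 in RKO. So the knockdown peak was the wider one in OVCAR8 and RKO and the narrower one in SKOV3 and LOVO. The widths labelled OVCAR8 control were nearest to those labelled SKOV3 knockdown, and those labelled SKOV3 control nearest to those labelled OVCAR8 knockdown.

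KMT2A, a histone H3 lysine methyltransferase gene, had the broad peak 65777 bases into the gene (chr11:118502269-118506616, plus strand). Its width was 4334 and 4332 bp in the lists labelled OVCAR8 control, 3504 and 3516 in those labelled OVCAR8 knockdown, 4193 and 4239 in those labelled SKOV3 control and 4272 and 4344 in those labelled SKOV3 knockdown. It was 3432 bp in LOVO control, 2525 in LOVO knockdown, 4258 in RKO control and 2779 in RKO knockdown. It was narrower in the knockdown lists of OVCAR8, LOVO and RKO and wider in those of SKOV3.

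ZNF646, a zinc-finger gene, had the widest of these regions (chr16:31076196-31081855, plus strand), with 5626 and 5646 bp in OVCAR8 control, 3933 and 3328 in those labelled OVCAR8 knockdown, 5070 and 5055 in those labelled SKOV3 control and 5609 and 5639 in those labelled SKOV3 knockdown. In LOVO it was 4514 bp in the control and 2201 bp in the knockdown list, and in RKO 4555 and 4479 bp. METTL15, a mitochondrial ribosomal RNA methyltransferase gene, was the most even, with a broad peak (chr11:28157126-28159554, plus strand) of 2341 to 2401 bp in 11 lists and 2175 bp in the LOVO knockdown list. The other regions lay in PRRC2B (chr9:131474372-131476749), PALM2AKAP2, a kinase anchoring protein gene (chr9:110136076-110139099), ANKLE2 (chr12:132730834-132733833), C15orf39 (chr15:75205867-75209330), ZNF445 (chr3:44444930-44448845), URB2 (chr1:229635034-229638236), TNKS1BP1 (chr11:57308298-57310675), ARHGEF17 (chr11:73308300-73312727), NUMA1 (chr11:72012726-72016664) and RABL6 (chr9:136829297-136832092). Their median widths ran from 2152 bp in ANKLE2 to 3751 bp in NUMA1, and the lowest single value was 2003 bp, for ANKLE2 in the RKO control list. The reference table used here gives gene bodies without exons, so which exons or untranslated regions these peaks cover was not analysed here.

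**Figure D4:**
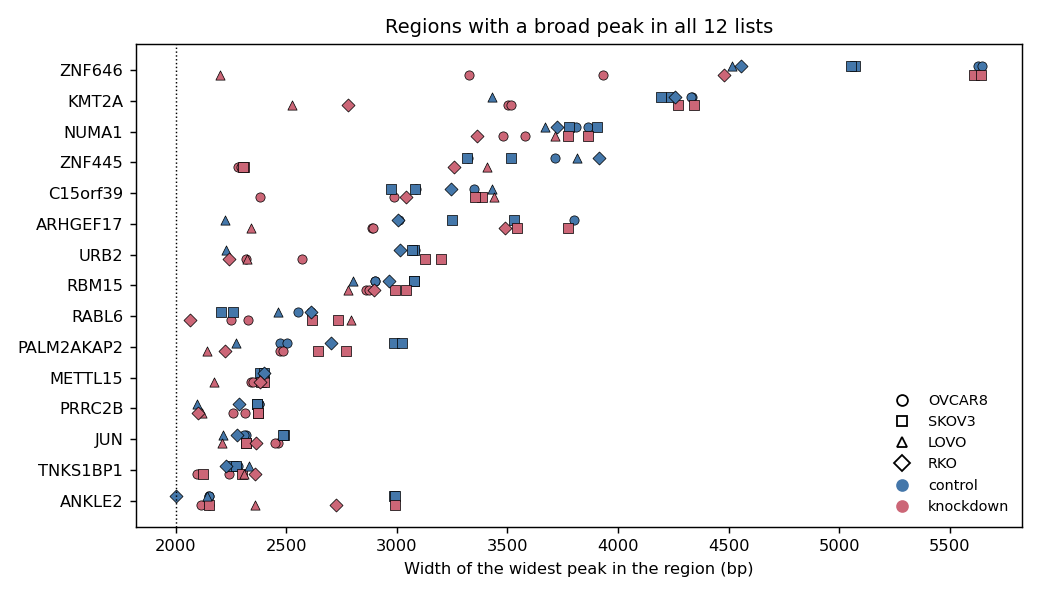
Width in bp (horizontal axis) of the widest peak in each of the 15 regions with a broad peak in all 12 lists, 1 row per gene and 1 symbol per list. Symbol shape gives the cell line, colour the condition as labelled, and the dotted line the 2000 bp threshold. Widths are close together in METTL15, apart from LOVO knockdown, and span 2201 to 5646 bp in ZNF646.

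The widest peaks of most lists lay in AHNAK or PLEC. AHNAK held the widest peak in the lists labelled OVCAR8 control (14317 and 13608 bp), SKOV3 control (14320 and 16915 bp) and SKOV3 knockdown (17592 and 17585 bp) and in RKO control (17640 bp). In the lists labelled OVCAR8 knockdown its widest peak was 4259 and 4614 bp, and in LOVO 4977 bp in the control and 9179 bp in the knockdown list. In the RKO knockdown list it was 514 bp. PLEC, which encodes the cytoskeletal linker plectin, held the widest peak of the lists labelled OVCAR8 knockdown, at 10658 and 10651 bp, and was close to that in the other ovarian lists, from 10796 to 10858 bp. In LOVO its widest peak was 465 bp in the control and 8468 bp in the knockdown list, and in RKO 10694 and 3421 bp. NSUN6, an RNA cytosine methyltransferase gene, held the widest peaks of LOVO, 10012 bp in the control and 9954 bp in the knockdown list, with 9973 and 3377 bp in RKO and at most 1941 bp in the ovarian lists. TIGAR, a phosphatase gene of sugar metabolism, held the widest peak of the RKO knockdown list, 10222 bp, where the RKO control list had at most 1524 bp.

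Among the gene lists used here, that of genes chosen by name for a long exon had the highest share with a broad peak. The reference table gives no exons, so no peak was placed in one. The gene lists were chosen with earlier results of these data known, so their shares are descriptions without a test. Genes with a broad peak also had more peaks, a median of 47.0 over all lists against 9 in genes with none, and the lists were not matched for this. Of 40 such genes, 32 had a broad peak in at least 1 list, against 6.48% of all genes with a peak, and 9 to 21 had one per list. KMT2D had 25 broad peaks over the 12 lists, AHNAK 23 and MKI67, the gene of the Ki-67 proliferation antigen, 15, each in all lists but 1 or 2. The 8 without one were BRCA2, TTN, PCLO, BDP1, TNRC18, MGA, FSIP2 and ZNF469. BRCA2 had 4 to 7 peaks per list, the widest 966 bp, and MGA missed the threshold with a peak of 1979 bp. Among ZNF genes, many of which carry their zinc fingers in a long last exon, 112 of 488 with a peak (22.95%) had a broad peak, from 7 genes in a list labelled OVCAR8 knockdown to 66 in RKO control. ZNF460 had one in 11 lists, and in the LOVO control list its widest peak was 1219 bp.

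The other gene lists held 1 to 4 genes with a broad peak each, at shares of 7.69% to 23.5% beside the 6.48% of all genes with a peak. Of 15 genes of the m6A machinery with a peak, 2 (13.3%) had a broad peak, RBM15 and RBM15B. Of 17 immediate-early genes, 4 (23.5%) did: JUN in all lists, FOS in the lists labelled OVCAR8 control (2471 and 2732 bp) and SKOV3 knockdown (2488 and 2802 bp), FOSL1 in those labelled SKOV3 control, and FOSL2. FOS had no peak of any width in the remaining 4 ovarian lists and peaks of 745 to 1263 bp in LOVO and RKO. Of 20 genes of homologous recombination and break repair, 4 did: ATR in the LOVO and RKO control lists (3029 and 2999 bp) but not the knockdown lists (1589 and 564 bp), RAD51B in both LOVO lists (2268 and 2010 bp), ATM in 1 list, and BRCA1.

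Of 15 very long genes of common fragile sites, 2 (13.3%) had a broad peak: FHIT in the lists labelled SKOV3 control and IMMP2L in those labelled OVCAR8 control. Of 13 abundant nuclear long non-coding RNAs, 1 (7.69%) did, TUG1 in the RKO knockdown list at 2585 bp, with 477 to 1671 bp in the other lists. Counting peaks that overlap a second gene as well, 3 of these RNAs were touched by a broad peak.

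**Figure D5:**
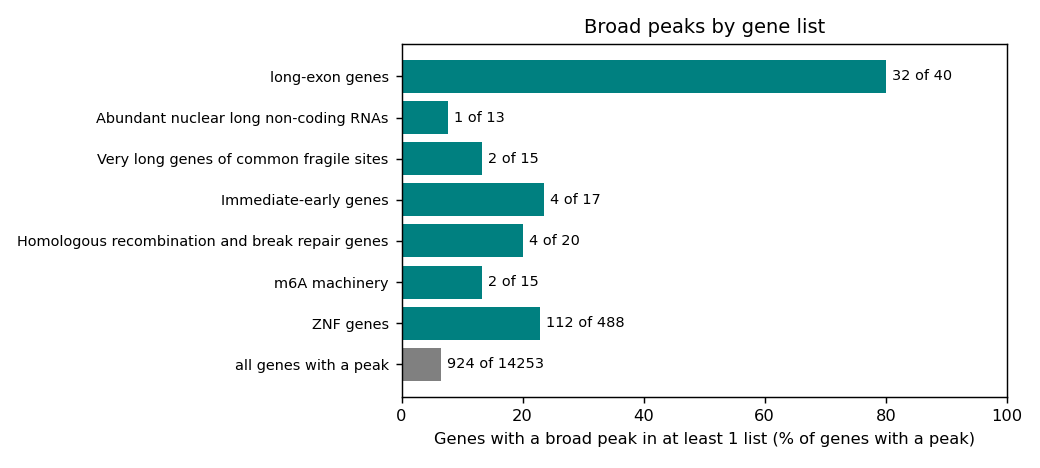
Percent of genes with a broad peak in at least 1 of the 12 lists (horizontal axis) among genes with any peak, for 7 gene lists and, in grey, all genes. The text at each bar gives the genes with a broad peak of those with a peak. Long-exon genes stand highest, with 32 of 40, and all genes lowest, with 6.48%. Gene lists were chosen with earlier results of these data known, and the shares were not tested.

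By gene class, broad peaks lay more often in protein-coding genes than narrow peaks of the same list did. Their midpoint was in a protein-coding gene for 83.7% to 92.8% of broad and 78.1% to 87.9% of narrow peaks, a mean difference of 3.16 percentage points with broad peaks higher in 10 of 12 lists (two-sided exact sign-flip permutation test over lists, Benjamini-Hochberg adjusted over 4 classes, p = 0.00977). Without RKO it was 1.87 points (exact permutation test, adjusted p = 0.0313). The 2 exceptions were the lists labelled OVCAR8 control. A midpoint inside both a protein-coding and a long non-coding RNA gene, on either strand, counted as protein-coding. Counted so, long non-coding RNA genes held 1.94% to 5.81% of broad and 4.28% to 7.76% of narrow peaks, lower for broad peaks in 12 of 12 lists by 1.85 points on average (exact permutation test, adjusted p = 0.00195). The space between genes held 1.81% to 7.23% of broad and 5.88% to 11.96% of narrow peaks, a mean difference of −2.18 points (exact permutation test, adjusted p = 0.00781), and other classes differed by 0.868 points (exact permutation test, adjusted p = 0.00977). Replicate lists are not independent lines. Over the 4 lines, the protein-coding difference was −0.277 points (OVCAR8), 2.95 (SKOV3), 3.98 (LOVO) and 9.65 (RKO) (exact permutation test, p = 0.25), and the lncRNA difference was below 0 in all 4 (exact permutation test, p = 0.125, the smallest possible).

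Broad peaks kept to the strand of their gene, as narrow ones did. Of broad peaks assigned to 1 gene with a known strand, 93.8% to 99.5% lay on it, and the RKO knockdown list, with 96.6%, was within this range although its narrow peaks were not. A peak of the opposite strand overlapped 12.9% to 18.6% of broad peaks in 11 lists and 34.9% in the RKO knockdown list. At the midpoint, the overlap was 1.94% to 6.43% for broad and 0.937% to 3.796% for narrow peaks. Along the gene body, introns included, 28.0% to 37.3% of broad peaks had their midpoint in the last of 5 equal parts and 11.9% to 21.0% in the first. For narrow peaks these shares were 26.1% to 31.7% and 19.9% to 24.4%, and in each of the 12 lists the broad share was higher in the last and lower in the first part, which was not tested.

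The annotated elements with printed sequences varied in the same way as the genes around them. The broad peak over the CDK13 start, a gene of a transcriptional cyclin-dependent kinase, began 520 to 589 bases before the start and was 2322 to 2518 bp wide in 11 lists. In the RKO control list the widest CDK13 peak was 1805 bp. The peak over MIR4292 was 2552 and 2611 bp wide in the lists labelled OVCAR8 control, 2252 and 2326 in those labelled OVCAR8 knockdown, 2203 and 2259 in SKOV3 control, 2733 and 2615 in SKOV3 knockdown, 2463 and 2793 in LOVO control and knockdown, and 2610 and 2066 in RKO. That over MIR6501 was broad in the lists labelled OVCAR8 control (2757 and 2750 bp) and SKOV3 knockdown (2746 and 2737 bp) and in LOVO knockdown (2710 bp), and 1369 to 1689 bp wide in the other 7. The groups with the wide MIR6501 peak were thus the same pair of ovarian labels as for FOS. A peak over a hairpin shows enriched RNA of that strand there, which for both lies in a longer host gene, and not the level of the mature microRNA.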

How the data were processed

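MeRIP peak lists of chromatin-associated RNA were analysed on hg38. The submitters' processing notes name MACS2 2.2.7.1, HISAT2 2.1.0, Bowtie2 2.4.2 and Trim Galore 0.6.6 without their roles. For OVCAR8 and SKOV3 the authors deposited 1 list per library, with a fold enrichment (a linear ratio) and −log10 p and q values per peak, called on each strand per the peak names. No −log10 q was below 2.00. The LOVO and RKO lists, deposited by the authors as 1 per group, hold an unexplained score of at least 3.00, in which 1 called peak can be listed as several pieces. The sources used here say neither how replicate 2 entered nor the read depth, so a lower number of peaks and a lower depth were not separated here.

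Peaks kept were on chromosomes 1 to 22 and X. Broad peaks had a width of at least 2000 bp and narrow peaks one under 500 bp. A peak was kept if a peak of the same strand in the other list shared 1 bp with it, or its midpoint. Like strength weighted narrow peaks over 20 bins of the rank of −log10 p or score. Genes came from RefSeq's GRCh38.p14 table, which names the same chromosomes. A peak was given to a gene where that gene's body was the sole one it overlapped, and to a gene class by its midpoint. Strand was not used for the class, and where classes overlapped, protein-coding came first, then lncRNA, then other. Genes were named by a rule: 8 with a broad peak in most lists, 3 per line and direction with most untouched broad peaks, the gene of the widest peak per line and condition, up to 3 per gene list and those with a covered start. Members, gene lists and tests were chosen with earlier results of these data known. Joining pieces, like strength and LOVO alone are alternatives added after seeing the data. Tests were two-sided exact permutations of labels within lines or of signs over lines or lists, checked on simulated data, in Python 3.11.15 with NumPy 2.4.6, pandas 2.3.3 and SciPy 1.17.1.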

Additional observations from a re-analysis of the deposited data

Results flagged for a closer look

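The share of peaks that were broad moved in opposite directions between lines under the same contrast. Knockdown minus control was 0.0507 percentage points in LOVO, −0.440 in OVCAR8, −0.499 in SKOV3 and −0.232 in RKO. The share of covered bases in broad peaks did the same, with 0.321 points in LOVO, −2.69 in OVCAR8, −2.53 in SKOV3 and −1.27 in RKO. LOVO and RKO have 1 list per group, and the ovarian labels are in doubt as described above, so the difference between lines was not tested.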

How the results depend on the processing

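All p-values here are from exact permutation tests. The mean over lines of the number was below 0 under every alternative run, from −1.001 (log2) in the ovarian lines alone (exact p = 0.0556) to −0.14 in LOVO alone (exact p = 1.0, the smallest 2 lists allow); with pieces joined, LOVO turned, from 339 to 371. Their share of peaks was −0.30 points without RKO (exact p = 0.0556), −0.47 in the ovarian lines (p = 0.0556), −0.28 with the ovarian lists as 1 stratum (p = 0.05), and −0.19 with pieces joined (p = 0.153, chosen after seeing the data); LOVO alone gave 0.0507. Their share of bases was −1.63 without RKO (exact p = 0.0556), −2.61 in the ovarian lines (p = 0.0556) and −1.01 with pieces joined (p = 0.167); LOVO alone gave 0.321. Permuting within pairs of the same replicate number (replicate block) gave an exact p = 0.0313 for the number, −0.64, and p = 0.0625 for both shares, −0.28 and −1.54 points. Over 23 chromosomes, deviations of same-numbered lists correlated at −0.0807 in OVCAR8 and 0.268 in SKOV3. With 2 lists per group these values cannot decide whether same-numbered lists belong together. The block does not apply to the gene classes, compared within a list.

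The protein-coding difference was 1.94 points at 3000 bp (exact, adjusted p = 0.281), 1.34 in the ovarian lines (adjusted p = 0.125) and 3.98 in LOVO (adjusted p = 0.667). Genes broad in every list were 69 at 1500 bp, 0 at 3000 bp, 35 without RKO, 59 in the ovarian lines and 139 in LOVO; genes broad in any list were 1878, 263, 605 (ovarian) and 305 (LOVO). Leaving out each ovarian list gave −0.65 to −0.62 for the number, −0.295 to −0.266 and −1.60 to −1.48 points for the shares, 48.3 to 48.6 and 30.9 to 31.3 points for peaks kept by touch and midpoint, and 3.08 to 3.63 points for protein-coding genes. The causes of these changes were not tested.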
